A study of Schizosaccharomyces pombe with 3 samples.

Results

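The comparison of fission yeast (Schizosaccharomyces pombe) grown with 8% glucose against cells grown with 5% glucose is described here through every gene that the deposited table of this comparison holds. The table has 181 genes of the 444 called anywhere in the series. In each group wild type cells of strain 972h- were grown to mid-log phase in synthetic dextrose (SD) medium whose glucose was set from the start, with 8% glucose in the T3 sample and 5% in the T2 sample. Library T1, of cells at 3% glucose, is used here only for its levels of the same genes. Polyadenylated RNA was sequenced, and the RNA of 3 replicates was pooled into the 1 library of each group. No spread between replicates can therefore be given, no difference has a replicate check, and no p-value was computed.

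Levels are FPKM, the fragments per kilobase of transcript scaled to library size. The counts and FPKM in the table are tied by a scale of 5819541 fragments in T3 and 5888551 in T2, fitted here and not the number of reads sequenced. Counts are estimates that need not be whole. Each fold is T3 FPKM over T2 FPKM, or its inverse where T3 was lower. The values in parentheses after a fold are its 95% interval (Clopper-Pearson, exact, from rounded counts), which covers counting error only. The table holds only genes that the authors called at a ratio of at least 2 and under a false discovery rate limit. The size of a difference and its counts thus put a gene in it, and a gene without a row has no value here. The rows are 3.54% of 5113 protein-coding genes, and each count of list members with a row below is to be read against that share, with no test. Gene functions are those of the RefSeq annotation ASM294v3 or common background.

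When glucose is plentiful, fission yeast ferments it and keeps genes for other carbon sources low, a control called glucose repression. Cyclic AMP and its kinase Pka1 signal that glucose is present, while the MAP kinase Sty1 and its transcription factor Atf1 drive genes used under stress, including osmotic and oxidative stress and lack of glucose. Hexose transporters of the Ght family bring glucose in, and hexokinases phosphorylate it. Galactose, maltose, sucrose and glycerol need enzymes of their own. Chaperones fold proteins and are induced by heat through Hsf1, and the AP-1-like factor Pap1 induces many detoxifying enzymes.

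At 8% glucose 80 genes (44.2% of the 181) were higher than at 5% and 101 (55.8%) were lower. The genes lower in T3 included every one of the 12 placed in sugar, glycerol and trehalose metabolism and every one of the 5 for sugar uptake. All 11 genes of mitosis, the cytoskeleton and DNA maintenance were higher, as were 13 of 20 oxidoreductases and detoxification genes and 9 of 12 genes of mating, meiosis and sporulation. A ratio of at least 4 was seen for 9 genes higher in T3 (4.97% of the rows) and for 28 genes lower in T3 (15.5%). The 80 and the 9 include SPBPB10D8.06c, and the 101 and the 28 include its copy SPBPB10D8.05c. Neither of these ratios is read as that of a single gene. The 9 fell to 5 with 1 FPKM added to both libraries, and 2 of the 9, osr1 and Tf2-4, had an interval wholly beyond 4-fold. The interval of Tf2-4 leaves out how reads were divided among near-identical copies. Summed, the 5 Tf2 rows were 2.91-fold higher (2.68 to 3.15). The interval lay wholly beyond 2-fold for 28 of the 80 higher genes and for 75 of the 101 lower genes. No interval reached 1, but the authors called these rows from the same counts, so this is no separate support.

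The 2 sides differed in level. The lower genes had a median of 33.8 FPKM in T3 and 102 FPKM in T2, and the higher genes a median of 19.5 FPKM in T3 and 8.51 FPKM in T2. In the library where they stood higher, 52 of the lower genes and 17 of the higher genes reached 100 FPKM. Relative to that fitted scale, the lower genes took 1.78% of the fragments in T3 (1.77 to 1.79%) and 6.18% in T2 (6.16 to 6.20%). The higher genes took 1.58% in T3 (1.57 to 1.59%) and 0.620% in T2 (0.613 to 0.626%). The genes were sorted by these same values, so the direction of both differences was set in advance. These intervals take the fitted scale as known. Transcript length was alike, with medians of 1899 bases for the higher and 2048 for the lower genes.

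**Figure D1:**
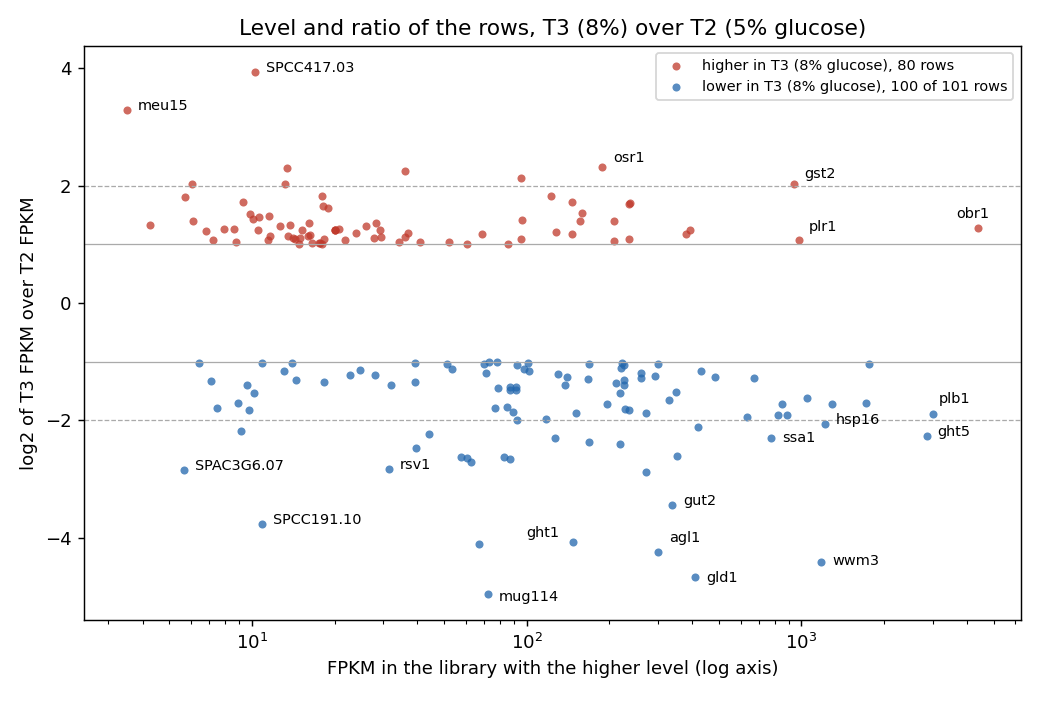
Each point is a gene, with its FPKM in the library where it stood higher on the log x axis and the log2 of T3 FPKM over T2 FPKM on the y axis; solid lines mark 2-fold and dashed lines 4-fold, and SPAC959.11, at 0 counts in T3, is left out. Most of the points past 4-fold lie below, gld1 at -4.66 and mug114 at -4.96 among them, and most points of the higher side lie between 1 and 2.

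Sugar and glycerol enzymes were among the genes with the largest differences. The 12 rows of sugar, glycerol and trehalose metabolism had a median log2 ratio of -2.64, against -1.04 over all 181 rows, and 9 of the 12 were at least 4-fold lower. These medians describe the rows of a table that already required 2-fold. gld1, a mitochondrial glycerol dehydrogenase, had 16.3 FPKM in T3 and 411 FPKM in T2, which is 25.3-fold lower (22.2 to 29.1). gut2, which encodes the mitochondrial glycerol-3-phosphate dehydrogenase, had 31.2 FPKM in T3 and 339 FPKM in T2, 10.9-fold lower (9.90 to 12). Of the 7 genes listed for glycerol and dihydroxyacetone metabolism these were the ones with a row.

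The enzymes that cut sugars were lower as well. agl1, a secreted alpha-glucosidase that opens maltose, had 377 counts in T3 and 7256 in T2 (15.8 and 301 FPKM), 19.0-fold lower (17.1 to 21.2). inv1, the invertase that splits sucrose and a classical target of glucose repression, had 37.0 FPKM in T3 and 272 FPKM in T2, 7.36-fold lower (6.76 to 8.05). Of 15 genes listed as sugar-cleaving enzymes these had rows, both of them lower. SPAC4H3.03c, a predicted glucan alpha-glucosidase outside that list, had 24.5 FPKM in T3 and 88.8 FPKM in T2, 3.63-fold lower.

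The galactose genes stood at nearly the same ratio. gal1, the galactokinase, had 13.9 FPKM in T3 and 87.0 FPKM in T2. gal7, the uridylyltransferase of the next step, had 13.4 FPKM in T3 and 82.8 FPKM in T2. gal10, the epimerase that interconverts UDP-galactose and UDP-glucose, had 9.54 FPKM in T3 and 62.5 FPKM in T2, and their neighbour tgd1, annotated as a dehydratase of nucleotide sugars, had 9.36 FPKM in T3 and 57.5 FPKM in T2. These levels were 6.14-fold (tgd1) to 6.55-fold (gal10) lower and their intervals overlapped in every pair. The transcripts of tgd1 and gal10 share 3291 bases, so those reads cannot be told apart. Of the 5 listed galactose genes 4 had a row, all lower.

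Glucose itself enters metabolism through hexokinase. hxk2, which encodes a hexokinase, had 341 FPKM in T3 and 1047 FPKM in T2, 3.07-fold lower (2.99 to 3.17). It was the only one of 20 listed genes of glycolysis and ethanol formation with a row. gcd1, annotated as a glucose-6-phosphate dehydrogenase and the only one of 10 listed pentose phosphate and gluconate genes with a row, had 58.0 FPKM in T3 and 353 FPKM in T2, 6.09-fold lower (5.67 to 6.57). SPAC22F8.05, a predicted trehalose-phosphate synthase, had 74.3 FPKM in T3 and 271 FPKM in T2, 3.65-fold lower. None of the 17 genes listed for gluconeogenesis, malate and the citrate cycle and none of the 3 listed trehalose genes had a row.

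Hexose transport followed the same direction. ght5, a main hexose transporter of this yeast, had 596 FPKM in T3 and 2857 FPKM in T2, 4.79-fold lower (4.68 to 4.92). ght1 had 8.76 FPKM in T3 and 147 FPKM in T2, 16.8-fold lower (14.3 to 20.03). ght4 had 75.04 FPKM in T3 and 218 FPKM in T2, 2.90-fold lower, and ght3 had 28.9 FPKM in T3 and 78.3 FPKM in T2, 2.71-fold lower. Fractional counts in these 4 rows show that the authors' estimate divided some reads among related sequences. Summed, the 4 rows held 9636 counts in T3 and 44787 in T2, 4.59-fold lower (4.49 to 4.70), and ght5 made up most of the sum. sut1, an alpha-glucoside transporter, had 38.7 FPKM in T3 and 77.7 FPKM in T2, 2.01-fold lower and thus just inside the table. Of 9 listed transporters of hexoses and other sugars 5 had a row, and all 5 were lower.

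**Figure D2:**
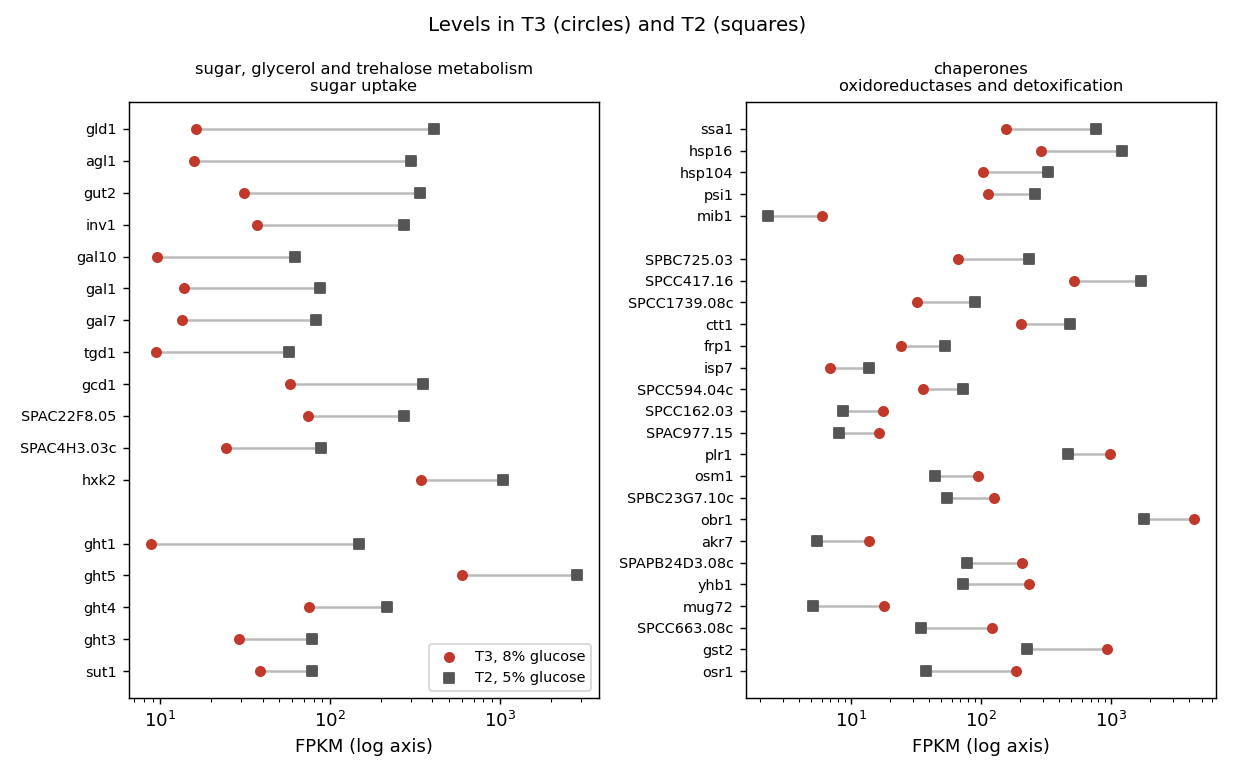
FPKM on a log axis of each gene of 4 function classes in T3 (red circles) and T2 (grey squares), joined by a line, with each class sorted by its ratio. All 12 genes of sugar, glycerol and trehalose metabolism and all 5 of sugar uptake have the circle left of the square, while 13 of the 20 oxidoreductases and detoxification genes have it on the right.

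Signalling genes were mostly lower, 7 of 8. pka1, the catalytic subunit of the cAMP-dependent kinase, had 102 FPKM in T3 and 220 FPKM in T2, 2.17-fold lower (2.03 to 2.32). cgs2, the phosphodiesterase that removes cAMP, had 32.0 FPKM in T3 and 86.6 FPKM in T2, 2.71-fold lower (2.38 to 3.10). Genes of opposite roles in one pathway, the kinase that cAMP activates and the enzyme that breaks cAMP down, thus stood lower together. rsv1, a zinc finger transcription factor, had 38 counts in T3 and 274 in T2 (4.42 and 31.4 FPKM), 7.11-fold lower (5.06 to 10.3). These 3 were the genes with a row among 21 listed for glucose and cAMP signalling.

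A target kinase of Sty1, a phosphatase that acts on it and other signalling genes were lower too. srk1, the kinase that Sty1 activates, had 41.3 FPKM in T3 and 151 FPKM in T2, 3.66-fold lower (3.39 to 3.98). pyp2, the tyrosine phosphatase that switches Sty1 off, had 29.9 FPKM in T3 and 118 FPKM in T2, 3.94-fold lower (3.57 to 4.36). gsk31, a predicted serine/threonine kinase, was 2.18-fold lower and SPBPB2B2.06c, a predicted phosphatase, 3.45-fold lower. The one signalling gene higher in T3 was ppk33, a predicted kinase, with 35.97 FPKM in T3 and 16.6 FPKM in T2, 2.17-fold higher (1.90 to 2.48).

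Genes of transcription, chromatin and RNA were 10 lower and 4 higher. SPCC320.03, a predicted transcription factor, had 32.8 FPKM in T3 and 169 FPKM in T2, 5.14-fold lower (4.81 to 5.52). aes1, annotated as an enhancer of RNA-mediated gene silencing, had 25.7 FPKM in T3 and 126 FPKM in T2, 4.91-fold lower. gti1, named for inducing gluconate transport, was 2.63-fold lower, SPBC56F2.05c, a predicted transcription factor, 2.53-fold and puf5, a predicted RNA-binding protein, 2.47-fold. ssn6, a corepressor that acts with Tup proteins on many repressed promoters, had 34.1 FPKM in T3 and 69.7 FPKM in T2, 2.04-fold lower (1.89 to 2.22). cbf12, cti1 and mug24 were 2.02- to 2.23-fold lower. On the higher side med13, a Mediator subunit, had 9.86 FPKM in T3 and 3.46 FPKM in T2, 2.85-fold higher, and it was the one gene with a row of 25 listed for SAGA, TFIID and Mediator. clr2, which silences heterochromatin, was 2.57-fold higher, tho3, of the TREX complex of RNA export, 2.29-fold, and pho7, the activator of phosphate genes, 2.05-fold with 52.3 FPKM in T3 and 25.5 FPKM in T2. pho7 was the one gene with a row of 12 listed for phosphate and thiamine.

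Chaperones were lower at 8% glucose in 4 of 5 rows. hsp16, a small heat shock protein, had 290 FPKM in T3 and 1213 FPKM in T2, 4.19-fold lower (3.96 to 4.47). ssa1, a cytosolic Hsp70, had 158 FPKM in T3 and 776 FPKM in T2, 4.91-fold lower (4.70 to 5.16). hsp104, the disaggregase, had 105 FPKM in T3 and 328 FPKM in T2, 3.13-fold lower, and psi1, a DNAJ protein, had 114 FPKM in T3 and 261 FPKM in T2, 2.28-fold lower. These 4 were the genes with a row among 27 listed for heat shock. mib1, a DNAJ protein outside that list, had 6.08 FPKM in T3 and 2.30 FPKM in T2, 2.64-fold higher on 81 and 31 counts.

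Targets of Sty1 and Atf1 were lower in all 4 of the 16 listed genes that had a row. They were pyp2, rds1, ish1 and ctt1. ctt1, the catalase, had 203 FPKM in T3 and 484 FPKM in T2, 2.38-fold lower (2.28 to 2.50). rds1, named for regulation by glucose and other nutrients, had 237 FPKM in T3 and 888 FPKM in T2, 3.74-fold lower (3.59 to 3.91). ish1, a nuclear envelope protein with LEA domains, had 122 FPKM in T3 and 349 FPKM in T2, 2.86-fold lower. The transcripts of rds1 and ish1 each share bases with a neighbouring gene.

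The upstream sequence of 2 sets of lower genes is shown because it holds the letters that the stress factors bind. The sets were picked from genes with a match and are not the list of Sty1 and Atf1 targets above. The 250 bases before the annotated transcript start were read from RefSeq ASM294v3 for 5112 protein-coding genes, the 181 included. No source used here names the authors' build, so positions are given as the distance from the start in ASM294v3. TGACGT, the core of the site that Atf1 and its relatives bind, was searched on both strands. Around it, 30 bases either side are printed in the direction of the gene. Capitals mark TGACGT or, where it lies on the other strand, ACGTCA.
cgs2: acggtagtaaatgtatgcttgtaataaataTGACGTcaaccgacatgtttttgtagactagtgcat
ctt1: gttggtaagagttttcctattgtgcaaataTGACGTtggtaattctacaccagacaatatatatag
plb1: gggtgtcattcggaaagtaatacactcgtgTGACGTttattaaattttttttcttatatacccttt
gut2: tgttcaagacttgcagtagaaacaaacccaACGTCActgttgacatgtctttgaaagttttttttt
wwm3: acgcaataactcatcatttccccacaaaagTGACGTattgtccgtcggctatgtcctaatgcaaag
srk1: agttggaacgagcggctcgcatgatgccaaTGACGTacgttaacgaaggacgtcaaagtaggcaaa
The first base of the capitals lies 59 bases before the start in cgs2 (chromosome III, minus strand), 59 in ctt1 (III, minus), 55 in plb1 (I, minus), 70 in gut2 (III, minus), 72 in wwm3 (II, plus) and 56 in srk1 (III, plus). The stretch of cgs2 also holds ACGTCA beginning 57 bases before the start, and that of srk1 holds it at 37 bases, with a further match outside the stretch at 114 bases.

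Among the genes lower in T3, 24 of 101 windows (23.8%) held TGACGT, against 2 of 80 (2.50%) among the higher genes and 282 of 5112 (5.52%) over all windows. The 24 genes were 2.01-fold (sut1) to 21.2-fold (wwm3) lower, with a median log2 ratio of -1.46, and 8 of them were placed in no function class. Their 29 matches, both strands counted, lay 18 to 213 bases before the start with a median of 72, and 27 of the 29 lay within 125 bases. The 12 genes of sugar, glycerol and trehalose metabolism gave a match in 1 window, that of gut2. Of the listed Sty1 and Atf1 targets with a row, ctt1, ish1 and rds1 held TGACGT and pyp2 did not. In 3 of the 24 genes the window runs into the transcript of another gene.

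The core GAANNTTC, a pair of facing units of the heat shock element, was found in 3 of 5 chaperone windows, those of hsp16, ssa1 and psi1, and in 4 of the 12 windows of sugar, glycerol and trehalose metabolism, those of gal10, inv1, gut2 and gld1. Over all windows 485 (9.49%) held it, and so did 12 lower genes (11.9%) and 16 higher genes (20%). Capitals mark it here.
hsp16: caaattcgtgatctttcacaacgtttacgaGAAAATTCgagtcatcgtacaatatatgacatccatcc
ssa1: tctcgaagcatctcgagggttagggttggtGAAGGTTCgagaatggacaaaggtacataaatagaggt
It begins 93 bases before the start in hsp16 (chromosome II, minus strand) and 58 in ssa1 (I, minus).

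In all 9 motifs were searched on both strands, and none contains another. CCCCTC, the stress response element, was in 4.95% of lower and 3.75% of higher windows against 1.70% of all, and none of the windows of sugar metabolism held it. CCCCGC, a GC box of the kind Mig1-type repressors bind, was in 8 lower windows (7.92%), ght1, ght4 and gcd1 among them, in 2 higher windows (2.50%) and in 0.998% of all. The related CCCCAC was in 9.90% of lower windows, gal7, tgd1, gut2 and rsv1 among them, with gal7 and tgd1 sharing 1 site between their divergent starts, in 3.75% of higher windows and in 2.72% of all. ACAAAGA, the core of the box bound by the mating regulator Ste11, was in 7.92% of lower and 10% of higher windows, the higher ones including spk1, rgs1, dni2 and fzr3, and in 6.01% of all. A match is a run of letters and not a shown site, and whether any factor acted there was not tested.

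Oxidoreductases and detoxification genes were 13 higher and 7 lower, and they held the highest levels of the higher side. obr1, a flavodoxin-like protein that the annotation calls a ubiquitinated histone-like protein, had 4389 FPKM in T3 and 1819 FPKM in T2, 2.41-fold higher (2.35 to 2.46). gst2, a glutathione S-transferase, had 938 FPKM in T3 and 229 FPKM in T2, 4.10-fold higher (3.91 to 4.28). plr1, a pyridoxal reductase, had 982 FPKM in T3 and 467 FPKM in T2, 2.10-fold higher (2.01 to 2.19). osr1, a predicted short chain dehydrogenase, had 188 FPKM in T3 and 38.0 FPKM in T2, 4.96-fold higher (4.30 to 5.71), the largest ratio above 10 counts in both libraries. Its neighbour SPCC663.08c, also a short chain dehydrogenase, had 122 FPKM in T3 and 34.7 FPKM in T2, 3.53-fold higher.

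yhb1, the flavohaemoglobin that removes nitric oxide, had 236 FPKM in T3 and 73.5 FPKM in T2, 3.21-fold higher (2.97 to 3.46). mug72, a predicted oxidoreductase, was 3.52-fold higher, SPAPB24D3.08c, a predicted NADP-dependent oxidoreductase, 2.62-fold, akr7, a predicted pyridoxal reductase, 2.50-fold and SPBC23G7.10c, a predicted flavin oxidoreductase, 2.30-fold. osm1, a predicted fumarate reductase and the one gene with a row of 22 listed for mitochondrial electron transfer, had 95 FPKM in T3 and 44.4 FPKM in T2, 2.14-fold higher. SPAC977.15, of the dienelactone hydrolase family, and SPCC162.03, a predicted short chain dehydrogenase, were each 2.03-fold higher. abc2, the vacuolar pump that exports glutathione conjugates, was placed with transport and had 40.8 FPKM in T3 and 19.9 FPKM in T2, 2.05-fold higher (1.85 to 2.28).

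The oxidoreductases that were lower included ctt1 and SPCC417.16, annotated as a predicted NADH-ubiquinone reductase subunit, which had 523 FPKM in T3 and 1711 FPKM in T2, 3.27-fold lower (3.13 to 3.46). SPBC725.03, a predicted pyridoxamine phosphate oxidase, had 66.9 FPKM in T3 and 235 FPKM in T2, 3.52-fold lower. SPCC1739.08c, a predicted short chain dehydrogenase, was 2.79-fold lower, isp7, an oxygenase, 2.02-fold and SPCC594.04c 2.01-fold. frp1, the ferric-chelate reductase, had 24.6 FPKM in T3 and 53.3 FPKM in T2, 2.17-fold lower, and str1, a siderophore-iron transporter, had 109 FPKM in T3 and 225 FPKM in T2, 2.07-fold lower. frp1 and str1 were the genes with a row among 18 listed for iron, copper and zinc. Of 23 listed redox and detoxification genes obr1, gst2 and yhb1 were higher and ctt1 was lower.

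The upstream window of obr1 is shown because it holds the 8-letter palindrome of AP-1-like sites, TTACGTAA (capitals), as did 24 of all windows (0.469%), 2 of the higher and 1 of the lower genes.
obr1: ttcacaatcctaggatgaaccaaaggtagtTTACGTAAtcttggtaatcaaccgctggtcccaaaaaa
It begins 111 bases before the start (chromosome I, minus strand). The related Pap1-type letters TTAGTAA and TTAGTCA were in 16.3% and 5.00% of higher windows, in 9.90% and 3.96% of lower windows and in 10.7% and 3.89% of all. Both were in the windows of gst2, pma2 and abc2.

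Genes of mating, meiosis and sporulation were 9 higher and 3 lower. mam3, the agglutinin of one mating type, had 159 FPKM in T3 and 55.0 FPKM in T2, 2.89-fold higher (2.70 to 3.08). rgs1, which turns pheromone signalling down at the G protein, had 96.1 FPKM in T3 and 36.2 FPKM in T2, 2.65-fold higher (2.41 to 2.92). spk1, the MAP kinase of the pheromone pathway, had 236 FPKM in T3 and 111 FPKM in T2, 2.14-fold higher (2.0 to 2.28). These 3 were the genes with a row among 31 listed for mating and pheromone response. dni2, a tetraspan protein of cell fusion, had 28.2 FPKM in T3 and 10.95 FPKM in T2, 2.57-fold higher.

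The higher genes of later steps had low levels. mfr1, the meiotic activator of the anaphase-promoting complex, had 20.7 FPKM in T3 and 8.65 FPKM in T2, 2.39-fold higher (1.76 to 3.26). fzr3, of the same Cdc20/Fizzy family, had 15.2 FPKM in T3 and 6.38 FPKM in T2, 2.38-fold higher, and spo7, needed for the forespore membrane, had 13.5 FPKM in T3 and 6.09 FPKM in T2, 2.21-fold higher. mug106, named from induction in meiosis, had 38 counts in T3 and 11 in T2, 3.50-fold higher (1.75 to 7.58). On the lower side mug108 had 97.4 FPKM in T3 and 420 FPKM in T2, 4.31-fold lower, and meu10, of the ascospore wall, 3.15 FPKM in T3 and 6.40 FPKM in T2, 2.03-fold lower. mug114 had 27 counts in T3 and 849 in T2 (2.32 and 72.1 FPKM), 31.1-fold lower (21.2 to 47.4), the lowest ratio of any gene with counts in T3. Genes called mug were 2 higher (mug72 and mug106) and 4 lower (mug24, mug86, mug108 and mug114).

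All 11 genes of mitosis, the cytoskeleton and DNA maintenance were higher, from 2.0- to 3.28-fold, and none reached 4-fold. Their levels were low, with medians of 17.99 FPKM in T3 and 8.6 FPKM in T2. nod1, a partner of the guanine exchange factor of cell polarity and division, had 71 counts in T3 and 22 in T2, 3.28-fold higher (2.0 to 5.53). mis18, which loads the centromeric histone, had 63 counts in T3 and 21 in T2, 3.05-fold higher (1.83 to 5.24), and mis6, a centromere connector, had 106 counts in T3 and 45 in T2, 2.39-fold higher (1.67 to 3.46). apc15, a subunit of the anaphase-promoting complex, had 52 counts in T3 and 19 in T2, 2.78-fold higher (1.61 to 4.96).

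The motors and the actin genes were of like size. tea2, the kinesin that carries polarity marks to cell ends, had 10.5 FPKM in T3 and 4.46 FPKM in T2, 2.36-fold higher, and klp6, a kinesin of the spindle, had 27.8 FPKM in T3 and 12.9 FPKM in T2, 2.16-fold higher. crn1, the coronin that binds actin, had 29.5 FPKM in T3 and 13.6 FPKM in T2, 2.18-fold higher. top3, a DNA topoisomerase, was 2.12-fold higher, abp2, which binds replication origins, 2.11-fold and msh3, of mismatch repair, 2.03-fold. The row named chk1, the checkpoint kinase, had 17.99 FPKM in T3 and 8.98 FPKM in T2, 2.0-fold higher, but the protein match that the table gives for it is Meu27, and which gene's reads it holds was not tested. Kinetochore and spindle genes had 3 rows of 27 listed and the anaphase-promoting complex 2 rows of 20, all higher.

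**Figure D3:**
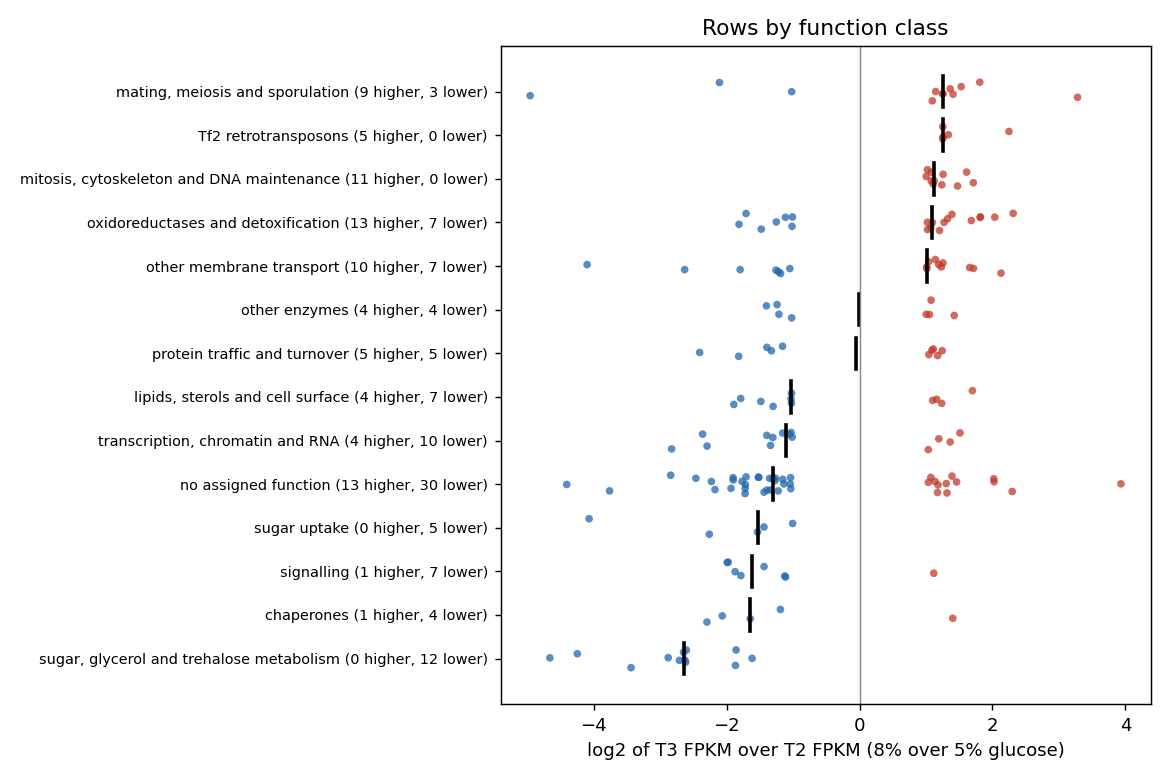
The log2 of T3 FPKM over T2 FPKM of each gene, in rows by function class with the numbers higher and lower beside each name; red points were higher and blue points lower in T3, black bars are class medians, points are shifted up and down only to separate them, and SPAC959.11 is not drawn. Sugar, glycerol and trehalose metabolism has the lowest median, -2.64, while mitosis, cytoskeleton and DNA maintenance has no point on the left.

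Other membrane transport was 10 higher and 7 lower, with the copies SPBPB10D8.06c among the 10 and SPBPB10D8.05c among the 7. The ratios of these copies are not read as those of single genes. SPBC409.08, a predicted polyamine transporter, had 146 FPKM in T3 and 44.5 FPKM in T2, 3.28-fold higher (3.02 to 3.56). SPBC530.02, a predicted transporter, had 18.1 FPKM in T3 and 5.75 FPKM in T2, 3.15-fold higher. dip5, a predicted amino acid transporter, was 2.39-fold higher, SPBPB10D8.01, a predicted cysteine transporter, 2.35-fold and nic1, which imports nickel, 2.28-fold. pma2, the second plasma membrane proton pump, had 11.6 FPKM in T3 and 5.25 FPKM in T2, 2.21-fold higher, SPBC23G7.13c, a predicted urea transporter, was 2.02-fold higher and ymc1, a mitochondrial carrier, 2.01-fold. On the lower side SPCC1529.01, a predicted transporter that lies between ght1 and gcd1, had 9.76 FPKM in T3 and 60.5 FPKM in T2, 6.20-fold lower (5.19 to 7.49). SPCC794.04c, another predicted transporter, had 65.7 FPKM in T3 and 228 FPKM in T2, 3.48-fold lower. mfs3, of the polyamine family, was 2.39-fold lower, mug86, a predicted acetate transporter, 2.33-fold and SPCPB1C11.02, an amino acid permease, 2.28-fold. Among 16 listed genes of vitamin, nucleobase and drug transport pma2 and mfs3 had rows.

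The phospholipases plb1 and plb2 went opposite ways. plb1 had 14801 counts in T3 and 55672 in T2 (812 and 3016 FPKM), 3.71-fold lower (3.65 to 3.79), the highest level at 5% of any row. plb2 had 4652 counts in T3 and 1452 in T2 (237 and 73.1 FPKM), 3.25-fold higher (3.06 to 3.44). bgl2, a glucanase of the cell wall, had 393 FPKM in T3 and 167 FPKM in T2, 2.36-fold higher, and mok11, an alpha-glucan synthase, had 14.1 FPKM in T3 and 6.59 FPKM in T2, 2.14-fold higher. SPCC417.12, of the carboxylesterase family, was 2.23-fold higher. Lower genes of lipids and the cell surface were say1, a predicted esterase, at 3.46-fold on 20 counts in T3 and 70 in T2, tcb2, a C2 domain protein, at 2.80-fold, the4 at 2.47-fold, and are1, erg31 and eis1 at 2.03- to 2.05-fold. are1 esterifies sterols and erg31 is a sterol desaturase. mam3 was the one gene with a row of 21 listed for the cell surface and flocculation.

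Protein traffic and turnover was even, 5 higher and 5 lower. rbd3, a rhomboid protease that lies next to rsv1, had 41.3 FPKM in T3 and 219 FPKM in T2, 5.30-fold lower (4.67 to 6.08). fub2, grp2, vta1 and nep1 were 2.23- to 3.53-fold lower, nep1 being the protease that removes NEDD8. pof15, an F-box protein, had 146 FPKM in T3 and 64.7 FPKM in T2, 2.26-fold higher, and snx3, a sorting nexin, 29.3 FPKM in T3 and 12.4 FPKM in T2, 2.37-fold higher. mnl1, vps51 and pex6, the last a peroxin, were 2.06- to 2.16-fold higher. Among other enzymes rib2, of riboflavin synthesis, was 2.68-fold higher, SPBC17G9.12c 2.11-fold, hem4, of haem synthesis, whose protein match in the table is the overlapping Spk1, 2.07-fold and cys2, of methionine and cysteine synthesis, 2.0-fold with 85.8 FPKM in T3 and 42.8 FPKM in T2. SPBPB2B2.05 was 2.64-fold lower, cmt2, a catechol methyltransferase, 2.37-fold, SPACUNK4.15 2.32-fold and spg4 2.03-fold.

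Retrotransposons and gene copies need separate values, since reads from identical sequences cannot be told apart. The 5 Tf2 rows were all higher. Tf2-4 had 36.1 FPKM in T3 and 7.60 FPKM in T2, 4.75-fold higher (4.03 to 5.61), and Tf2-11 had 4.24 FPKM in T3 and 1.68 FPKM in T2, 2.52-fold higher. Tf2-5, Tf2-6 and Tf2-12 had the same values, 20.03 FPKM in T3 and 8.41 FPKM in T2, and their coding sequences of 4002 bases differ at 0 positions in ASM294v3. Tf2-4 differs from them at 2 positions and Tf2-11 at 16. Summed, the 5 rows held 2308 counts in T3 and 804 in T2, 2.91-fold higher (2.68 to 3.15). A copy without a row is not in this sum, so it is not the ratio of the whole element. At 3% glucose Tf2-4 had 0 counts, Tf2-5, Tf2-6 and Tf2-12 had 0.23 each and Tf2-11 had 30.1. Whether reads were divided differently among copies in each library was not tested.

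The transporter copies SPBPB10D8.05c and SPBPB10D8.06c show what such division can do. SPBPB10D8.05c had 27.2 counts in T3 and 475 in T2, 17.2-fold lower, and SPBPB10D8.06c had 685 counts in T3 and 159 in T2, 4.37-fold higher. Their coding sequences of 1140 bases, and those of their neighbours SPBPB10D8.04c and SPBPB10D8.07c, differ at 0 positions. Summed, the 2 rows held 713 counts in T3 and 634 in T2, a ratio of 1.14 (1.02 to 1.27). Neither ratio is read as that of its own gene. In all, 16 rows had fractional counts, 7 higher and 9 lower.

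Genes with no assigned function were 13 higher and 30 lower, and some were among the most abundant. wwm3 had 425 counts in T3 and 9155 in T2 (55.6 and 1180 FPKM), 21.2-fold lower (19.3 to 23.5), the largest difference of any row above 1000 FPKM in either library. SPCC1235.01 had 856 FPKM in T3 and 1759 FPKM in T2, 2.06-fold lower. rtc3 had 391.86 FPKM in T3 and 1293 FPKM in T2, 3.30-fold lower, ddr48 258 FPKM in T3 and 852 FPKM in T2, also 3.30-fold lower, and lsd90 165 FPKM in T3 and 631 FPKM in T2, 3.82-fold lower. SPBPB2B2.18 was 5.52-fold lower on 17.02 counts in T3 and 95.8 in T2, SPAC977.18 4.69-fold and SPCC1235.17 4.52-fold. Counts of SPBPB2B2.18 and SPAC977.18 were fractional, so reads were divided among related sequences and these ratios may not be those of single genes.

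On the higher side SPAC27D7.11c, of the But2 family, had 378 FPKM in T3 and 168 FPKM in T2, 2.25-fold higher (2.12 to 2.39), and SPAPB24D3.07c had 157 FPKM in T3 and 59.7 FPKM in T2, 2.62-fold higher. SPAC959.06c had 48 counts in T3 and 12 in T2, 4.07-fold higher (2.12 to 8.37). SPCP20C8.02c had 39.7 counts in T3 and 9.93 in T2, 4.05-fold higher (1.99 to 9.08), and SPAC7D4.08 had 76 counts in T3 and 28 in T2, 2.75-fold higher. The fractional counts of SPCP20C8.02c carry the same limit of divided reads.

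The counts were under 10 in a library for 6 rows, and their ratios are loose. SPCC417.03 had 15 counts in T3 and 1 in T2, a ratio of 15.3 with an interval of 2.34 to 639. meu15 had 19 counts in T3 and 2 in T2, a ratio of 9.72 (2.32 to 85.1), and SPCC576.19c had 24 counts in T3 and 5 in T2, a ratio of 4.92 (1.82 to 16.3). SPAC3G6.07 had 3 counts in T3 and 22 in T2, a fold of 7.18 lower (2.18 to 37.8). SPCC191.10, next to inv1, had 4 counts in T3 and 55 in T2, 13.6-fold lower (5.02 to 51.6). SPAC959.11 had 0 counts in T3 and a fractional 36.3 in T2, from reads divided among related sequences. Set against a floor of 3 counts in T3 it was 11.9-fold lower, a value that leaves out counting error in T2. With 1 FPKM added to both libraries its ratio was 0.152.

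Lists with no row included 18 genes of nitrogen and amino acid uptake, although dip5, SPCPB1C11.02, SPBPB10D8.01 and SPBC23G7.13c, outside that list, are transporters of amino acids or urea with a row. The 10 core histone genes had no row either, and with 3.54% of genes in the table an empty list of this size says little.

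The T1 library adds a level at 3% glucose for 141 of the 181 genes, those that the authors also called in a comparison with T1. T1, T2 and T3 all enter the rules that chose these genes, since a T1 value needs a call against T2 or T3. The other 15 higher and 25 lower genes have no T1 value. The orders below are therefore a description shaped by that choice. Any difference counted, as for dip5 with 32 counts in T1 and 34 in T2. Of the 65 higher genes with a T1 value 61 had T1 below T2 below T3, and the other 4, plb2, SPAC7D4.08, SPBC23G7.10c and pex6, were lowest at 5%. The 61 include the Tf2 rows, SPBPB10D8.06c and SPCP20C8.02c, whose counts were divided among related sequences. Their orders are not read as those of single genes. Of the 76 lower genes 51 peaked at 5%, 41 of them lowest at 8% and 10 lowest at 3%, and 25 were highest at 3%. The 10 include SPBPB10D8.05c, SPAC977.18 and SPBPB2B2.18, whose counts were fractional too.

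The classes fell in different orders. All 10 genes of sugar, glycerol and trehalose metabolism with a T1 value and all 4 hexose transporters peaked at 5% and were lowest at 8%. agl1 had 67.4, 301 and 15.8 FPKM at 3%, 5% and 8%. inv1 had 127, 272 and 37.0 FPKM, and ght5 had 2057, 2857 and 596 FPKM in the same order. The 4 chaperones lower in T3 were highest at 3% instead, as in hsp16 with 2618, 1213 and 290 FPKM and ssa1 with 1067, 776 and 158 FPKM. Among oxidoreductases 11 had T1 below T2 below T3, gst2 with 145, 229 and 938 FPKM and osr1 with 25.4, 38.0 and 188 FPKM, and so had all 9 genes of mitosis with a T1 value. The step between 3% and 5% was small in some of the 11, as in obr1 at 1675, 1819 and 4389 FPKM, SPCC162.03 at 8.1, 8.73 and 17.7 FPKM, and osm1 at 44.4, 44.43 and 95 FPKM. wwm3 had 1208, 1180 and 55.6 FPKM. plb1 had 1760, 3016 and 812 FPKM where plb2 had 159, 73.1 and 237 FPKM, so this pair was opposed at each step.

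**Figure D4:**
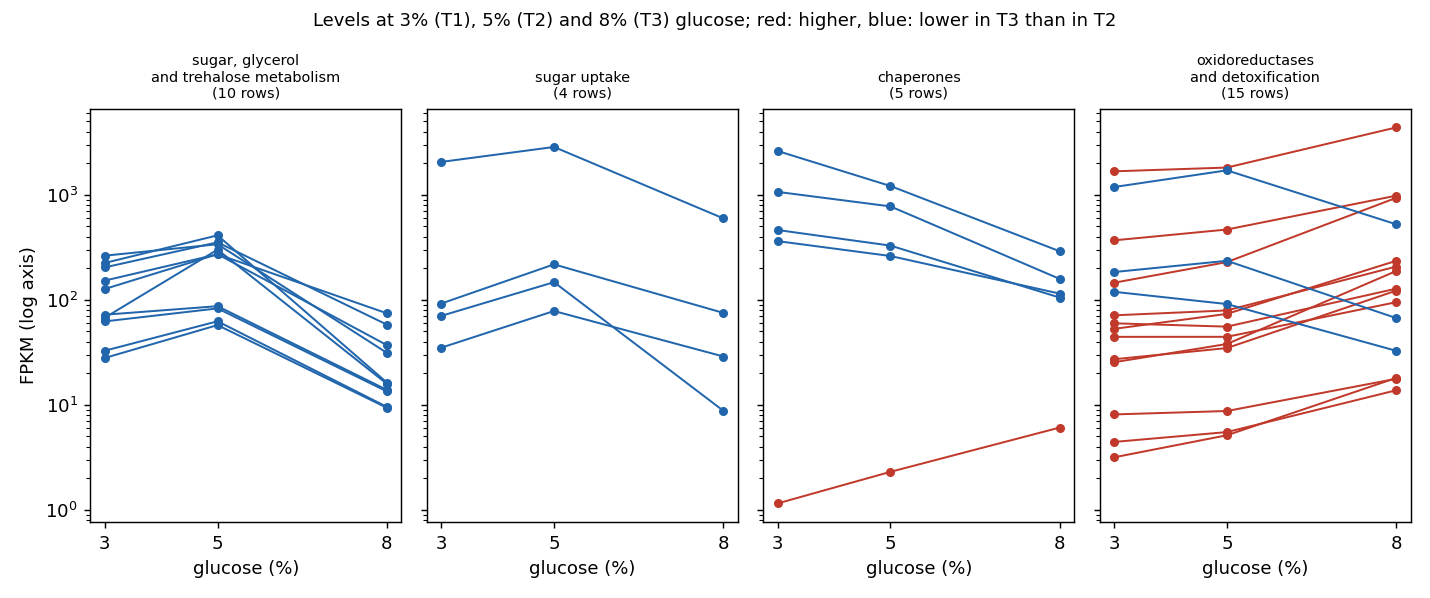
FPKM on a log axis at 3% (T1), 5% (T2) and 8% glucose (T3) for the genes of 4 function classes that have a T1 value, 1 library per point and 1 line per gene; red lines were higher and blue lines lower in T3 than in T2. The 10 sugar, glycerol and trehalose genes and the 4 hexose transporters peak at 5%, and the 4 blue chaperone lines go down at each step.

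Neighbouring genes that both had a row mostly stood on the same side. In the order of 5113 protein-coding genes of ASM294v3, 26 pairs of neighbours both had a row, with 46 genes in them. In 24 pairs both genes went the same way, 21 pairs lower and 3 higher. With 44.2% of all rows higher and 55.8% lower, many pairs would agree in any order of the genes. The number of pairs to expect was not computed, and no test was run. The transcripts of 7 pairs overlap and all 7 were of the same direction. No step of the described methods used strand, so reads in an overlap cannot be told apart. rds1 overlaps SPAC343.20 by 1712 bases, and their ratios were 3.74- and 3.73-fold lower. spk1 overlaps hem4 by 1525 bases (2.14- and 2.07-fold higher), tgd1 overlaps gal10 by 3291 bases and ish1 overlaps grp2 by 633 bases.

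Of the 19 pairs without overlap 17 went the same way. The galactose genes gal7, tgd1, gal10 and gal1 form a run on chromosome II in which gal7 with tgd1 and gal10 with gal1 are such pairs and tgd1 with gal10 is not, and ght1, SPCC1529.01 and gcd1 form one on chromosome III with ratios of 16.8-, 6.20- and 6.09-fold lower. mug114 and hxk2, which diverge from one stretch of chromosome I, were 31.1- and 3.07-fold lower, gld1 and vta1 were 25.3- and 2.51-fold lower, rsv1 and rbd3 7.11- and 5.30-fold lower, and osr1 and SPCC663.08c 4.96- and 3.53-fold higher. The pairs that went opposite ways were the copies SPBPB10D8.05c and SPBPB10D8.06c, and SPCC417.12 with SPCC417.15. The transcript models in the table were at least 1.25 times as long as those of ASM294v3 for 24 genes, 3051 against 1773 bases for hxk2 and 909 against 570 bases for SPCC191.10, so further overlaps may exist in the authors' models and were not tested.

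**Figure D5:**
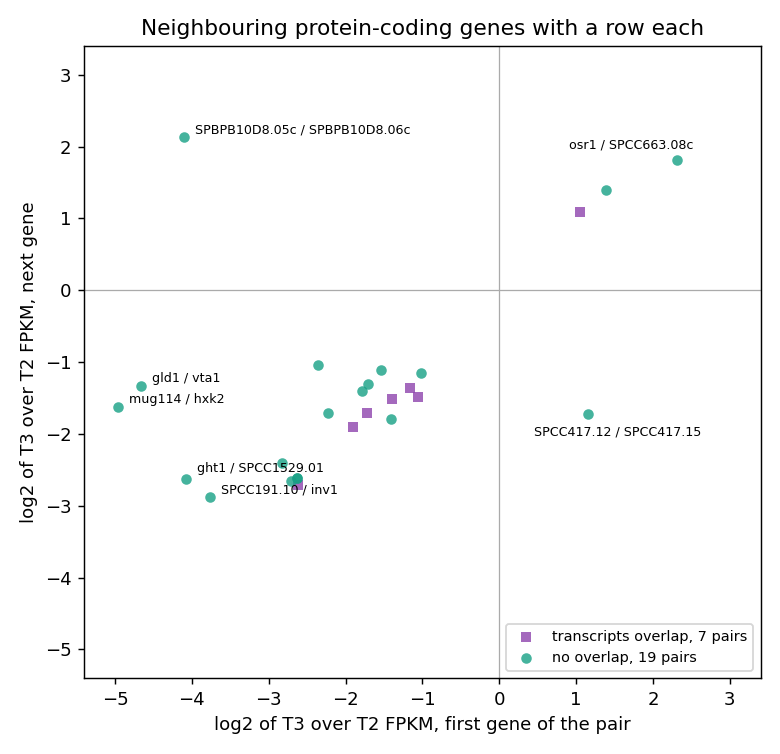
Each point is a pair of neighbouring protein-coding genes, with the log2 of T3 over T2 FPKM of the first gene on the x axis and of the next gene on the y axis; squares are the 7 pairs whose transcripts overlap and circles the 19 that do not. In 21 pairs both are lower, in 3 both are higher, and 2 pairs have one gene higher and one lower.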

How the data were processed

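RNA of wild type cells at 3%, 5% and 8% glucose was sequenced in 1 pooled library each. The authors filtered reads with SOAPnuke, aligned them with BWA and Bowtie, estimated expression with RSEM and made calls by NOIseq and by a Poisson model. The deposited tables hold the authors' expected counts and the FPKM that the authors derived from them; their ratio, p-value and FDR columns were not used, nor were second sheets. Genes were matched to RefSeq ASM294v3, 161 by accession and 20 by name. Ratios and Clopper-Pearson intervals were computed from FPKM and rounded expected counts in scipy 1.17.1 (with pandas 2.3.3 and numpy 2.4.6, on Python 3.11.15), and intervals were tested on simulated counts. With 1 library per side no test was run.

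The genes, 26 gene lists and 13 function classes were chosen with earlier results of these data known, the classes after reading the rows (138 genes placed, 43 not). Genes named were the 15 highest and 15 lowest ratios with at least 10 counts in both libraries, the 10 highest FPKM of each direction, low-count rows, list members and the ends of each class. Motifs and copies were examined after values were seen. The values of 1 gene of the naming rule are not reported here.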

Additional observations from a re-analysis of the deposited data

How the results depend on the processing

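The numbers of genes higher and lower stayed within 1.5 times of 80 and 101 with at least 10 counts in both libraries, at least 10 FPKM in the higher library, at least 1000 bases or whole counts only. Counting only intervals wholly beyond 2-fold left 28 higher genes and 75 lower genes. The count of genes at least 4-fold higher was 5 with 1 FPKM added to both libraries, against 9 without, and 2 genes had an interval wholly beyond 4-fold higher. Adding 1 FPKM moved 1 ratio out of its interval, that of SPAC959.11, and ratios of counts without scaling moved none of 181. Sums over copies were added after seeing the data. Summing SPBPB10D8.05c with SPBPB10D8.06c turned the direction of SPBPB10D8.05c, at a ratio of 1.14, and the sum of 5 Tf2 rows, 2.91, left 1 of the 5 within its own interval. No paired analysis was possible because each concentration has 1 library. Differences between replicates limit every ratio beyond its counting interval, and genes outside the table have no value here. Reads shared by overlapping genes or by copies further limit the ratios of those rows. Whether reads in an overlap were counted for 1 gene or for both was not tested.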
